A study of Arabidopsis thaliana with 12 samples.

Results

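The genes described here are 34 Arabidopsis thaliana loci, listed by locus identifier, that are known for late embryo and seed maturation functions. They comprise 27 targets, which code for oil body proteins, late embryogenesis abundant (LEA) proteins and other maturation products, and 7 transcriptional regulators. Values were available for 33 of the 34, that is 26 targets and 7 regulators, among the 27827 loci of the array table. The steroleosin gene HSD1 (AT5G50600) was not analysed here. A locus belongs to the set by its identifier alone, with no threshold on a value, and the list was drawn up with earlier results of these data known.

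RNA came from whole seedlings of 4 genotypes, kept in the cold for 48 h, given white light of 100 µmol per square metre and second for 6 h and then grown at 22 °C in darkness for 4 days without sugar. The lines cnu1 and cnu2 are suppressor mutants isolated in the PMEIox line. PMEIox is a transformant of Col-0 that is known to overexpress PMEI5 (AT2G31430), an inhibitor of pectin methylesterases, enzymes that remove methyl groups from wall pectin. Col-0 is the wild type, and all lines share its background. As background to the study, the cnu1 mutation is known to lie in BRI1, the brassinosteroid receptor, and the cnu2 mutation in RLP44, a receptor-like protein. The promoter of the transgene is not given in the labels, and each of the 3 altered genotypes is represented by a single line, so effects of the line and of the gene cannot be told apart. Each genotype had 3 biological replicates lettered A, B and C. Replicates were harvested on successive weeks, and the labels do not say which letter is which week.

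Seed maturation is the late phase of embryo growth, when oil and storage protein are laid down and the embryo becomes tolerant of drying. Oleosins, caleosins and steroleosins coat the oil bodies, and LEA proteins are hydrophilic proteins that accumulate as water is lost. The programme is driven by the factors LEC1, LEC2, FUS3 and ABI3 and by the abscisic acid (ABA) response factors ABI4, ABI5 and DPBF2 (also called bZIP67). It is normally shut down during germination, when storage oil and protein are consumed.

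The deposited log2 values ran from 0.785 to 13.9 with a median of 5.47, and their number of 3 arrays per genotype limits the precision. The transgene checked the label of Col-0: PMEI5 had 12.62, 12.69 and 12.62 in cnu1, 12.53, 12.62 and 12.69 in cnu2, and 12.69, 12.64 and 12.64 in PMEIox, against 8.19, 5.05 and 4.49 in Col-0. PMEI5 does not tell cnu1, cnu2 and PMEIox apart, and neither BRI1 nor RLP44 passed the test between any pair of these lines. The high value in Col-0 belongs to replicate A, so the counts of members are also given without that array. Among organ markers, 0 of 4 passed the test between PMEIox and Col-0, with 1 at an unadjusted p under 0.05. The 4 were PYK10 and TIP2;3 of root and hypocotyl, COBL9 of root hairs and PORA of dark-grown shoots. In cnu1 against PMEIox and against Col-0 0 passed, with 2 and 3 at such an unadjusted p. For cnu2 0 passed and these counts were 1 and 2. The 3 in cnu1 against Col-0 were PORA at -0.65, COBL9 at 0.37 and TIP2;3 at 0.29 (limma adjusted p = 0.134, 0.196 and 0.224). Whole seedlings were used, so more cells of a type and more RNA per cell cannot be told apart.

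Transcripts of most maturation targets were higher in PMEIox than in Col-0 and lower in cnu1 and in cnu2 than in PMEIox, while 1 of the 7 regulators passed the test in any of these comparisons. By limma with Benjamini-Hochberg adjustment over all loci and a threshold of 0.05, 17 of the 26 targets rose and 0 fell in PMEIox against Col-0, where 5.25% of all loci passed, 2.79% higher and 2.46% lower. Of the 7 regulators 0 rose and 1, ABI5, fell, with 3 at an unadjusted p under 0.05, ABI3, ABI4 and ABI5. Of all 27827 loci 5146 had such an unadjusted p. In cnu1 against PMEIox 0 targets rose and 21 fell, where 6.44% of all loci passed, 3.54% higher and 2.90% lower. In cnu2 against PMEIox 0 rose and 15 fell, where 3.25% of all loci passed, 1.78% higher and 1.48% lower. Of the 7 regulators 0 passed the test in cnu1 or in cnu2 against PMEIox, with 0 and 1 at an unadjusted p under 0.05. For all 27827 loci the latter counts were 5464 and 4674. These comparisons share the PMEIox arrays, so they are not independent of each other. Without Col-0 replicate A, 16 members passed the test between PMEIox and Col-0, all of them higher.

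**Figure D1:**
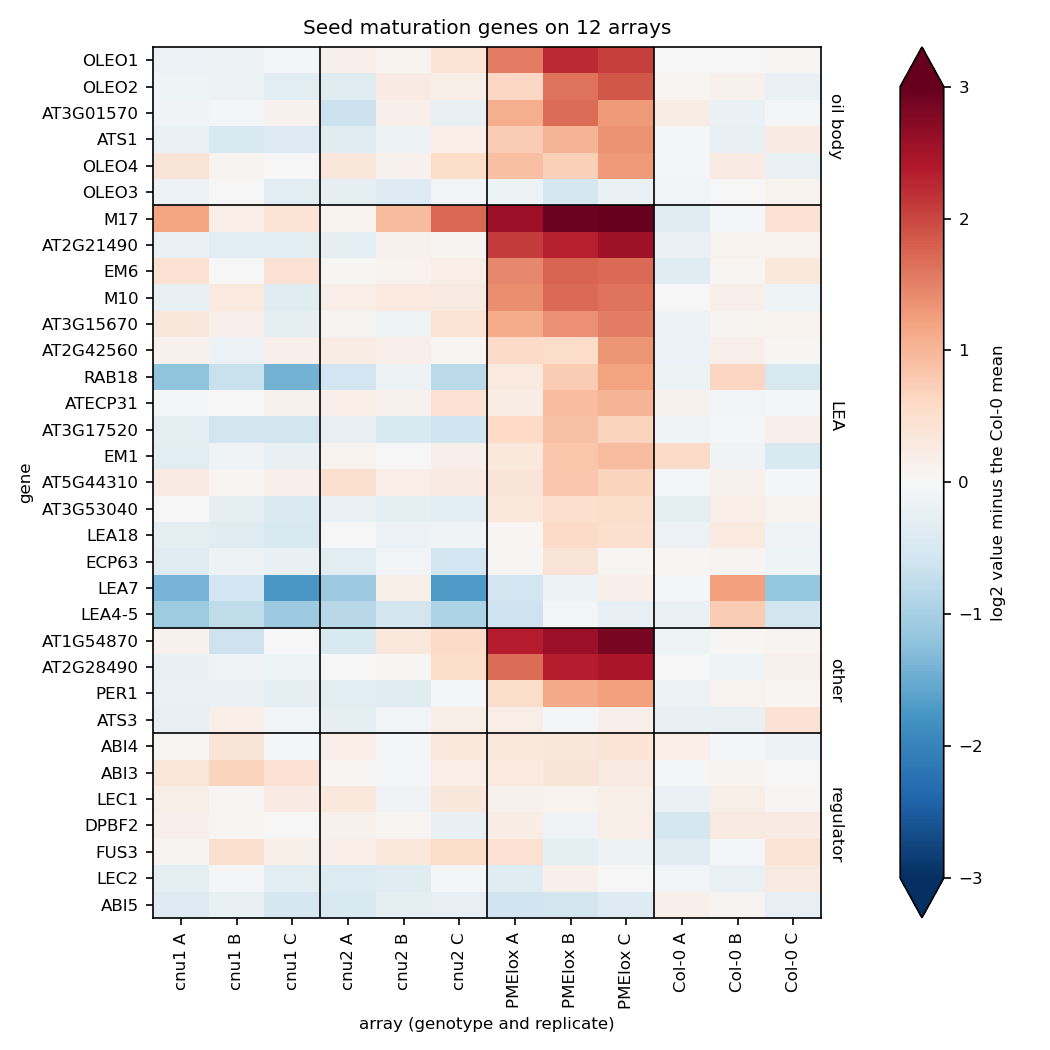
Log2 value of each of 33 genes (rows, grouped by role and ordered by their difference between PMEIox and Col-0) on each of 12 arrays (columns), shown as the difference from the mean of that gene in Col-0; red is higher and blue lower. The columns of PMEIox are red for most oil body, LEA and other maturation genes, with M17 up to 3.12 above Col-0 on average, and the rows of the regulators are pale throughout.

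The median difference was not the same in every role, but the roles overlapped widely. Differences between PMEIox and Col-0 ran from -0.29 to 1.95 for oil body genes, from -0.30 to 3.12 for LEA genes and from 0.10 to 2.59 for other maturation genes. A difference between roles was not tested. The median log2 difference between PMEIox and Col-0 was 1.20 for 6 oil body genes, 0.72 for 16 LEA genes and 1.56 for 4 other maturation genes, against 0.10 for the 7 regulators and 0.00 for all loci. In cnu1 against PMEIox these medians were -1.37, -0.97 and -1.75, against 0.03 for the regulators and 0.00 for all loci. In cnu2 against PMEIox they were -1.25, -0.71 and -1.58, against -0.11 for the regulators and 0.00 for all loci. On the level of arrays, the mean log2 value over the 26 targets lay between 4.54 and 4.66 in cnu1, between 4.65 and 4.85 in cnu2 and between 5.58 and 6.06 in PMEIox, against 4.74 to 4.94 in Col-0. All PMEIox arrays therefore lay above all arrays of the other genotypes in this mean. Replicate A of PMEIox held the lowest of the 3 PMEIox values for 15 of the 17 targets that rose.

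Most genes of the oil body coat were higher in PMEIox. Of the 6 with values 5 rose in PMEIox against Col-0, 5 fell in cnu1 and 4 fell in cnu2 against PMEIox. OLEO1 (AT4G25140), a major seed oleosin, had 5.48, 5.48 and 5.60 in cnu1, 5.79, 5.74 and 6.06 in cnu2, and 7.19, 7.87 and 7.71 in PMEIox, against 5.63, 5.62 and 5.67 in Col-0. Every PMEIox value exceeded every value of the other lines by more than 1 log2 unit. OLEO1 was 3.87-fold higher in PMEIox than in Col-0, 4.21-fold lower in cnu1 than in PMEIox and 3.31-fold lower in cnu2 than in PMEIox (limma, adjusted p = 2.12e-05, 8.29e-06 and 0.000116).

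The other oleosins did not all follow. AT3G01570, which codes for a further oleosin, had 2.85, 2.94 and 3.09 in cnu1, 2.32, 3.12 and 2.75 in cnu2, and 4.05, 4.63 and 4.24 in PMEIox, against 3.19, 2.77 and 2.92 in Col-0. The PMEIox arrays again stood apart, and the difference from Col-0 was 1.35 ± 0.20 (SE, limma adjusted p = 0.00183). OLEO4 (AT3G27660) had 3.87, 3.58 and 3.49 in cnu1, 3.84, 3.63 and 4.03 in cnu2, and 4.40, 4.20 and 4.77 in PMEIox, against 3.45, 3.74 and 3.28 in Col-0. It rose by 0.97 ± 0.17 in PMEIox and fell by 0.81 ± 0.17 in cnu1 (SE, limma adjusted p = 0.00577 and 0.0139), while its difference of -0.62 in cnu2 did not pass (adjusted p = 0.0759). The cnu1 call of OLEO4 ended without cnu1 replicate B, cnu1 replicate C or PMEIox replicate C (adjusted p = 0.0524, 0.0652 and 0.0596). OLEO2 (AT5G40420) rose by 1.37 ± 0.27 (SE, limma adjusted p = 0.0101) to a mean of 6.11 ± 0.66 in PMEIox, against 4.74 ± 0.17 in Col-0 (SD, n = 3 each). Its 3 values in PMEIox, 5.37, 6.36 and 6.61, were the widest spread among the oil body genes in that line. OLEO2 fell by 1.57 in cnu1 and by 1.35 in cnu2, and the cnu2 call ended without cnu2 replicate A, PMEIox replicate B or PMEIox replicate C (limma adjusted p = 0.0694, 0.0648 and 0.0678).

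OLEO3 (AT5G51210) was the exception among the oleosins. It had 6.81, 6.98 and 6.65 in cnu1, 6.72, 6.59 and 6.90 in cnu2, and 6.82, 6.47 and 6.79 in PMEIox, against 6.89, 6.97 and 7.08 in Col-0. Its PMEIox values lay just below those of Col-0, with a difference of -0.29 and a 95% confidence interval from -0.57 to -0.01 that missed the threshold after adjustment (limma adjusted p = 0.249). ATS1 (AT4G26740), a calcium-binding caleosin with peroxygenase activity, had 3.18, 2.93 and 3.00 in cnu1, 3.03, 3.23 and 3.59 in cnu2, and 4.15, 4.41 and 4.74 in PMEIox, against 3.36, 3.17 and 3.64 in Col-0. It was 2.06-fold higher in PMEIox than in Col-0, 2.63-fold lower in cnu1 than in PMEIox and 2.22-fold lower in cnu2 than in PMEIox (limma adjusted p = 0.00472, 0.000496 and 0.0043).

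**Figure D2:**
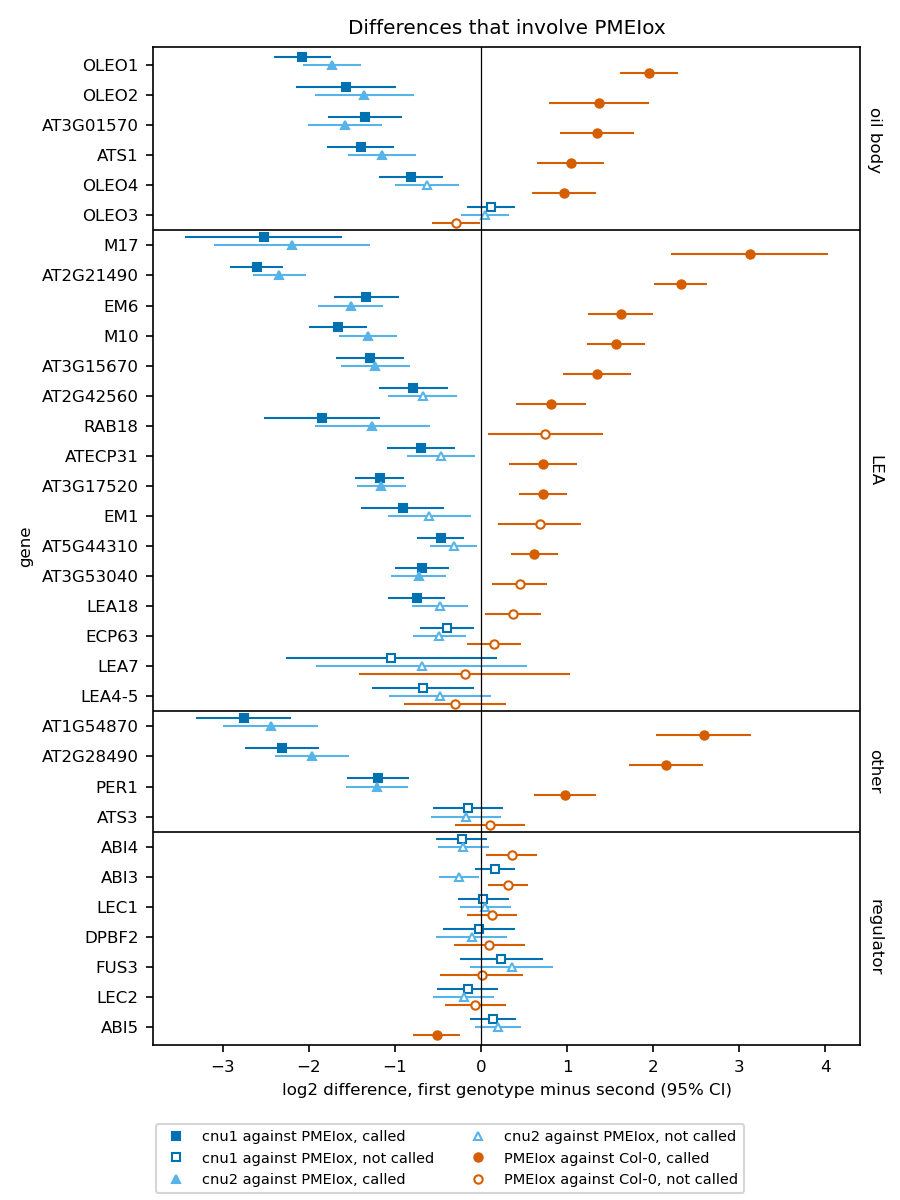
Log2 difference with its 95% confidence interval for 33 genes (rows, grouped by role) in cnu1 against PMEIox (squares), cnu2 against PMEIox (triangles) and PMEIox against Col-0 (circles); filled symbols passed the test at an adjusted p under 0.05. Oil body genes other than OLEO3 lie right of 0 for PMEIox against Col-0 and left of 0 for the suppressors against PMEIox, while the intervals of most regulators include 0.

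LEA genes held the largest difference of the set as well as several that did not pass. Of 16 LEA genes, 9 rose in PMEIox against Col-0, 13 fell in cnu1 and 8 fell in cnu2 against PMEIox, and 0 moved the opposite way. M17 (AT2G41260), a LEA gene of the late embryo, had 5.83, 4.84 and 5.05 in cnu1, 4.75, 5.59 and 6.36 in cnu2, and 7.21, 7.58 and 8.50 in PMEIox, against 4.28, 4.58 and 5.07 in Col-0. The values scattered widely within each line, yet those of PMEIox lay above all others. M17 was 8.71-fold higher in PMEIox than in Col-0 (95% confidence interval of the log2 difference 2.21 to 4.03, limma adjusted p = 0.000937) and 5.75-fold lower in cnu1 than in PMEIox (adjusted p = 0.00299). In cnu2 it was 4.58-fold lower than in PMEIox (adjusted p = 0.015), a call that ended without cnu2 replicate A, cnu2 replicate B or PMEIox replicate C (adjusted p = 0.0514, 0.0564 and 0.0585).

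M10 (AT2G41280), a similar LEA gene, lies on the chromosome across a single locus, AT2G41270, from M17. It had 3.88, 4.39 and 3.73 in cnu1, 4.30, 4.40 and 4.37 in cnu2, and 5.50, 5.78 and 5.71 in PMEIox, against 4.08, 4.24 and 3.97 in Col-0. The PMEIox values were tight and more than 1 log2 unit above the rest, and M10 was 2.97-fold higher in PMEIox than in Col-0 (limma adjusted p = 0.000102). It was 3.17-fold lower in cnu1 and 2.48-fold lower in cnu2 than in PMEIox (adjusted p = 4.3e-05 and 0.00072).

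The dehydrin gene AT2G21490, whose product belongs to a LEA class that stays soluble on heating, had the smallest adjusted p of the set. Its values were 5.30, 5.19 and 5.17 in cnu1, 5.24, 5.62 and 5.58 in cnu2, and 7.59, 7.83 and 8.05 in PMEIox, against 5.29, 5.60 and 5.60 in Col-0. Values of the 3 other lines overlapped each other and lay about 2 log2 units below PMEIox. AT2G21490 was 5.0-fold higher in PMEIox than in Col-0, 6.08-fold lower in cnu1 than in PMEIox and 5.07-fold lower in cnu2 than in PMEIox (limma adjusted p = 4.05e-06, 1.21e-06 and 8.3e-06).

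The Em genes EM6 and EM1 code for group 1 LEA proteins and are known targets of ABI5. EM6 (AT2G40170) had 5.44, 4.96 and 5.41 in cnu1, 5.0, 5.08 and 5.19 in cnu2, and 6.41, 6.72 and 6.68 in PMEIox, against 4.62, 5.03 and 5.29 in Col-0. It was 3.08-fold higher in PMEIox than in Col-0, 2.52-fold lower in cnu1 and 2.85-fold lower in cnu2 than in PMEIox (limma adjusted p = 0.000187, 0.000562 and 0.000636). EM1 (AT3G51810) showed a smaller difference and more spread, with 3.94, 4.16 and 4.06 in cnu1, 4.38, 4.29 and 4.42 in cnu2, and 4.59, 5.10 and 5.19 in PMEIox, against 4.84, 4.16 and 3.82 in Col-0. PMEIox and Col-0 overlapped, through Col-0 replicate A. The difference of 0.69 ± 0.22 did not pass (SE, limma adjusted p = 0.106), and without Col-0 replicate A it was 0.97 and passed (adjusted p = 0.0102). In cnu1 EM1 fell by 0.91 ± 0.22 against PMEIox (SE, adjusted p = 0.0299). That call ended on omission of each cnu1 array, of PMEIox replicate B or of PMEIox replicate C (adjusted p from 0.0612 to 0.116).

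Other LEA genes moved by less than EM6 between PMEIox and Col-0. AT3G15670 was 2.55-fold higher in PMEIox than in Col-0 (limma adjusted p = 0.000999). Its mean was 8.54 ± 0.21 in PMEIox, against 7.19 ± 0.16 in Col-0 (SD, n = 3 each). Against PMEIox it fell by 1.29 in cnu1 and by 1.23 in cnu2 (limma adjusted p = 0.00107 and 0.00333). AT3G17520 rose by 0.72 ± 0.13 in PMEIox and fell by 1.18 ± 0.13 in cnu1 and by 1.16 ± 0.13 in cnu2 (SE, adjusted p = 0.00629, 0.000157 and 0.000547). AT2G42560 rose by 0.82, ATECP31 (AT3G22500), a seed maturation protein gene, by 0.72 and AT5G44310 by 0.62 in PMEIox (limma adjusted p = 0.0239, 0.0391 and 0.0121). These 3 calls depended on single arrays. The call of AT2G42560 ended without Col-0 replicate A or Col-0 replicate C (adjusted p = 0.084 and 0.058), and that of AT5G44310 ended without PMEIox replicate B (adjusted p = 0.0556). The call of ATECP31 ended without PMEIox replicate B, PMEIox replicate C or any of the Col-0 arrays (adjusted p from 0.0634 to 0.138) and with arrays centred on reference genes (adjusted p = 0.0642). AT5G44310 also had dim signals, with a mean over all arrays at or above that of only 1.7% of the loci.

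In cnu1 against PMEIox, AT3G53040 fell by 0.68, LEA18 (AT2G35300) by 0.75, AT2G42560 by 0.78, ATECP31 by 0.69 and AT5G44310 by 0.47 (limma adjusted p = 0.0149, 0.0108, 0.026, 0.0416 and 0.0455). In cnu2 AT3G53040 fell by 0.72 (adjusted p = 0.02), and the differences of LEA18, AT2G42560, ATECP31 and AT5G44310, from -0.67 to -0.32, did not pass. Each of these 6 calls ended on omission of at least 1 array. For AT3G53040 those arrays were replicates B and C of PMEIox and of the suppressor compared (adjusted p from 0.0503 to 0.0757), and for LEA18 it was cnu1 replicate C (adjusted p = 0.0502). For AT2G42560 they were all cnu1 arrays and PMEIox replicate C (adjusted p from 0.0524 to 0.0965), and for ATECP31 and AT5G44310 all cnu1 arrays and replicates B and C of PMEIox (adjusted p from 0.0749 to 0.154). ECP63 (AT2G36640) did not pass in PMEIox against Col-0, cnu1 against PMEIox or cnu2 against PMEIox, with differences of 0.15, -0.39 and -0.48.

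RAB18, LEA7 and LEA4-5 are LEA genes known to be induced by ABA and drought in vegetative tissue too. Of these, 0 of the 3 passed the test between PMEIox and Col-0. LEA7 and LEA4-5 were picked after their values were seen, and the other LEA genes were not sorted by drought response. The 3 therefore do not stand for drought-induced LEA genes as a class. RAB18 (AT5G66400), a dehydrin gene, had 5.98, 6.51 and 5.77 in cnu1, 6.60, 7.03 and 6.38 in cnu2, and 7.47, 7.94 and 8.40 in PMEIox, against 7.03, 7.82 and 6.70 in Col-0. PMEIox and Col-0 overlapped, and their difference of 0.75 ± 0.31 did not pass (SE, limma adjusted p = 0.211). RAB18 was 3.60-fold lower in cnu1 than in PMEIox (adjusted p = 0.00317) and 2.40-fold lower in cnu2 than in PMEIox (adjusted p = 0.0476). The cnu2 call ended on omission of any array of cnu2, of PMEIox replicate B or of PMEIox replicate C (adjusted p from 0.0704 to 0.161).

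LEA7 (AT1G52690) had 4.53, 5.35 and 4.18 in cnu1, 4.83, 6.09 and 4.22 in cnu2, and 5.35, 5.76 and 6.08 in PMEIox, against 5.85, 7.14 and 4.76 in Col-0. Replicate B was the highest of the 3 arrays in cnu1, in cnu2 and in Col-0, and the 3 Col-0 values alone spanned more than 2 log2 units. LEA4-5 (AT5G06760) had 6.77, 7.06 and 6.74 in cnu1, 6.99, 7.28 and 6.88 in cnu2, and 7.22, 7.78 and 7.59 in PMEIox, against 7.63, 8.58 and 7.27 in Col-0. In LEA4-5 replicate B was the highest array of every genotype, and in RAB18 it was the highest in cnu1, cnu2 and Col-0. Neither LEA7 nor LEA4-5 passed the test in any of the 6 comparisons, and their differences between PMEIox and Col-0 were -0.19 ± 0.56 and -0.30 ± 0.27 (SE, limma adjusted p = 0.903 and 0.631).

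**Figure D3:**
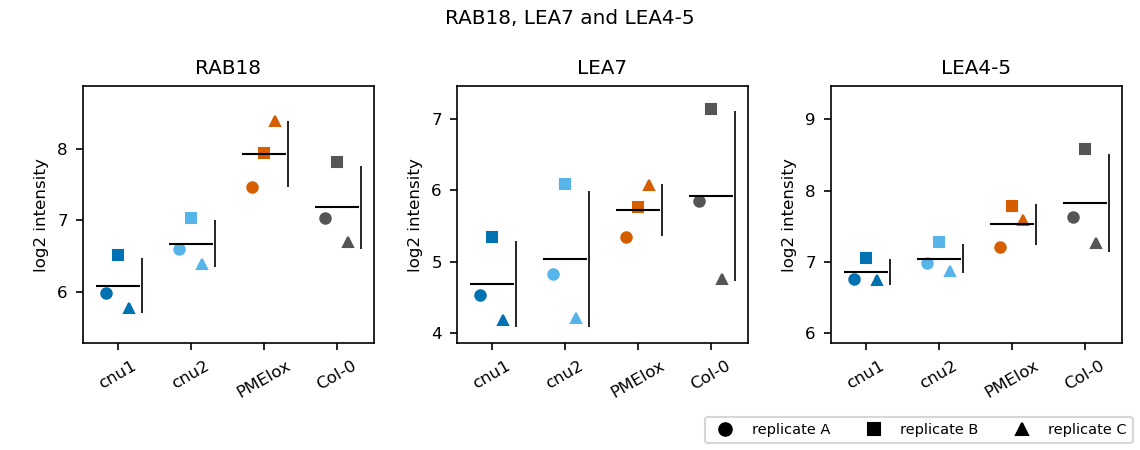
Log2 intensity of RAB18, LEA7 and LEA4-5 on every array by genotype (symbols mark replicates A, B and C; horizontal lines are means and vertical lines 1 SD to each side, n = 3). Replicate B of Col-0 stands highest in that genotype, at 7.82, 7.14 and 8.58, and the Col-0 values of LEA7 span those of PMEIox.

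Of the 4 other maturation genes 3 rose in PMEIox and fell in cnu1 and in cnu2. AT1G54870, which codes for an NAD(P)-binding oxidoreductase of seeds, had 6.29, 5.55 and 6.15 in cnu1, 5.71, 6.48 and 6.75 in cnu2, and 8.51, 8.73 and 9.02 in PMEIox, against 6.03, 6.21 and 6.26 in Col-0. Its PMEIox values lay well above all others, and it was 6.01-fold higher in PMEIox than in Col-0, 6.75-fold lower in cnu1 and 5.43-fold lower in cnu2 than in PMEIox (limma adjusted p = 0.000102, 4.18e-05 and 0.000333). AT2G28490, which codes for a storage-type protein of the cupin family, had 4.32, 4.44 and 4.41 in cnu1, 4.53, 4.58 and 5.11 in cnu2, and 6.22, 6.89 and 6.99 in PMEIox, against 4.54, 4.42 and 4.69 in Col-0. It was 4.45-fold higher in PMEIox than in Col-0, 4.96-fold lower in cnu1 and 3.89-fold lower in cnu2 than in PMEIox (adjusted p = 6.81e-05, 2.38e-05 and 0.000258).

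PER1 (AT1G48130), a peroxiredoxin of dormant seeds and aleurone, had 5.18, 5.19 and 5.12 in cnu1, 5.08, 5.03 and 5.35 in cnu2, and 5.93, 6.53 and 6.62 in PMEIox, against 5.22, 5.50 and 5.43 in Col-0. Every PMEIox value lay above those of the other lines, which overlapped in part, and the differences were 0.98 ± 0.16 in PMEIox against Col-0, -1.20 ± 0.16 in cnu1 against PMEIox and -1.21 ± 0.16 in cnu2 against PMEIox (SE, limma adjusted p = 0.00425, 0.000829 and 0.00189). The embryo-specific gene ATS3 (AT5G07190) had 3.34, 3.78 and 3.49 in cnu1, 3.28, 3.50 and 3.75 in cnu2, and 3.77, 3.55 and 3.74 in PMEIox, against 3.37, 3.36 and 4.02 in Col-0. All 4 genotypes overlapped, and the difference of PMEIox from Col-0 had a 95% confidence interval from -0.30 to 0.51.

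The 7 regulators were compared in the same way, to set them beside the targets. LEC1 (AT1G21970) codes for a subunit of the NF-Y complex and had 3.90, 3.75 and 3.96 in cnu1, 4.03, 3.60 and 4.05 in cnu2, and 3.84, 3.81 and 3.88 in PMEIox, against 3.51, 3.88 and 3.74 in Col-0. LEC2 (AT1G28300) codes for a B3 factor and had 1.92, 2.15 and 1.89 in cnu1, 1.80, 1.85 and 2.16 in cnu2, and 1.83, 2.36 and 2.22 in PMEIox, against 2.12, 2.01 and 2.48 in Col-0. The genotypes overlapped for both genes, and their PMEIox minus Col-0 differences had 95% confidence intervals from -0.16 to 0.42 and from -0.42 to 0.29. FUS3 (AT3G26790), another B3 factor, had 3.52, 3.94 and 3.63 in cnu1, 3.66, 3.78 and 4.01 in cnu2, and 3.92, 3.16 and 3.30 in PMEIox, against 3.08, 3.40 and 3.87 in Col-0. DPBF2 (AT3G44460), a bZIP factor that works with the LEC1 complex, had 2.20, 2.11 and 2.05 in cnu1, 2.18, 2.11 and 1.81 in cnu2, and 2.28, 1.93 and 2.22 in PMEIox, against 1.53, 2.32 and 2.29 in Col-0. For FUS3 and DPBF2 the spread within a line was as large as that between lines, and the interval of PMEIox minus Col-0 ran from -0.48 to 0.49 and from -0.32 to 0.51. LEC2 and DPBF2 were among the dimmest signals of the table, at or above 5.0% and 5.2% of the loci, and the table holds no detection calls.

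The ABA response factors and ABI3 gave small differences. ABI5 (AT2G36270), a bZIP factor that acts after germination as well as in seeds, had 5.92, 6.08 and 5.80 in cnu1, 5.86, 6.05 and 6.07 in cnu2, and 5.71, 5.76 and 5.92 in PMEIox, against 6.46, 6.40 and 6.07 in Col-0. Its PMEIox values lay below all Col-0 values, and ABI5 fell by 0.51 ± 0.12 (SE, limma adjusted p = 0.0329), the opposite direction from EM6. The ABI5 call ended without Col-0 replicate A, Col-0 replicate B, PMEIox replicate A or PMEIox replicate B (adjusted p = 0.111, 0.117, 0.119 and 0.101) and with PMEIox and Col-0 fitted alone (adjusted p = 0.0902). ABI4 (AT2G40220), an AP2 factor, had 3.99, 4.34 and 3.92 in cnu1, 4.14, 3.90 and 4.26 in cnu2, and 4.27, 4.28 and 4.37 in PMEIox, against 4.15, 3.90 and 3.80 in Col-0. The difference of PMEIox from Col-0 was 0.36, with a 95% confidence interval from 0.06 to 0.66 and an adjusted p of 0.179 by limma. ABI3 (AT3G24650), the B3 factor with the brightest signal among the regulators, had 7.32, 7.65 and 7.40 in cnu1, 7.01, 6.94 and 7.17 in cnu2, and 7.27, 7.37 and 7.24 in PMEIox, against 6.91, 7.05 and 6.96 in Col-0. PMEIox did not overlap Col-0, at a difference of 0.32 with a 95% confidence interval from 0.09 to 0.55 that missed the threshold after adjustment (limma adjusted p = 0.12).

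**Figure D4:**
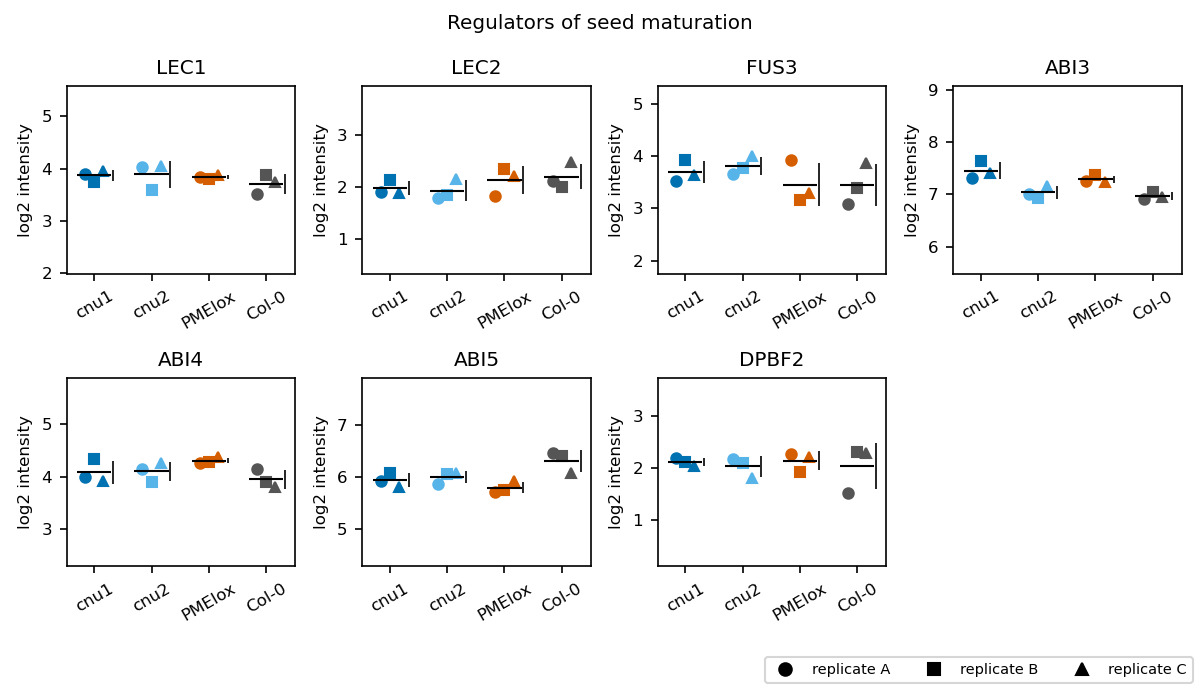
Log2 intensity of the 7 regulators on every array by genotype (symbols mark replicates A, B and C; horizontal lines are means and vertical lines 1 SD to each side, n = 3). The panels span equal lengths of the log2 scale from different starting values, and ABI5 in PMEIox lies below Col-0 by 0.51, while the genotypes overlap for LEC1, LEC2, FUS3 and DPBF2.

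Set side by side, the targets had a median log2 difference of 0.89 between PMEIox and Col-0, with a range from -0.30 to 3.12, and the regulators had 0.10, with a range from -0.51 to 0.36. Every regulator had a 95% confidence interval inside 1 log2 unit to each side of 0 in each of the 6 comparisons. A 2-fold change of these signals thus lay outside the intervals. LEC1, LEC2, FUS3, ABI4 and DPBF2 had mean signals among the lowest 40% of loci. A signal that dim can stay flat while RNA changes, so their intervals do not bound a change of their RNA. Between PMEIox and Col-0 the interval lay inside 1 log2 unit for 8 of the 26 targets and for 26496 of all 27827 loci. The narrow intervals of the regulators were thus shared by most loci. The difference between the medians of targets and regulators was 0.79 and ran from 0.63 without Col-0 replicate C to 1.03 without Col-0 replicate A when single arrays were left out. Without the lowest 40% of loci it was 1.45, over 15 targets and only 2 regulators, ABI3 and ABI5.

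How near the suppressors came to the wild type was read from cnu1 and cnu2 against Col-0, whose differences do not use the PMEIox values and which share the Col-0 arrays. By limma 0 of 33 members passed in cnu1 against Col-0 and 0 of 33 in cnu2 against Col-0, with 7 and 6 at an unadjusted p under 0.05. Of all 27827 loci 3869 and 3155 had such an unadjusted p. Of all loci 0.622% passed in cnu1 against Col-0, 0.359% higher and 0.262% lower, and 0.187% passed in cnu2 against Col-0, 0.108% higher and 0.0791% lower. The median log2 difference of the 26 targets was -0.17 in cnu1 against Col-0 and 0.00 in cnu2 against Col-0. OLEO1 averaged 5.52 ± 0.07 in cnu1 and 5.87 ± 0.17 in cnu2, against 5.64 ± 0.02 in Col-0 (SD, n = 3 each). M17 kept the largest positive difference, 0.60 in cnu1 and 0.93 in cnu2 (95% confidence intervals from -0.31 to 1.51 and from 0.02 to 1.84, adjusted p = 0.568 and 0.431 by limma).

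The largest negative differences from Col-0 were those of RAB18, LEA7 and LEA4-5. LEA7 differed by -1.23 in cnu1 and -0.88 in cnu2, RAB18 by -1.10 and -0.51, and LEA4-5 by -0.97 and -0.78 (limma adjusted p = 0.357, 0.6, 0.134, 0.573, 0.134 and 0.303). For RAB18 and LEA4-5 every cnu1 value lay below every Col-0 value, and for LEA7 the groups overlapped. The 95% confidence interval lay within 1 log2 unit to each side of 0 for 29 of the 33 members in cnu1 against Col-0 and for 29 in cnu2 against Col-0. M17, RAB18, LEA7 and LEA4-5 were the members outside it in each. Of all 27827 loci it lay within for 27005 and 27176, a larger share than among the members. AT3G17520 differed by -0.46 in cnu1 and -0.44 in cnu2 with no overlap with Col-0, and did not pass (adjusted p = 0.134 and 0.222). ABI3 differed from Col-0 by 0.49 in cnu1 (95% confidence interval 0.25 to 0.72, limma adjusted p = 0.0707) and by 0.07 in cnu2. With the lowest 40% of loci left out, or with trend and robust settings of eBayes, ABI3 in cnu1 against Col-0 passed (adjusted p = 0.0248 and 0.0175).

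**Figure D5:**
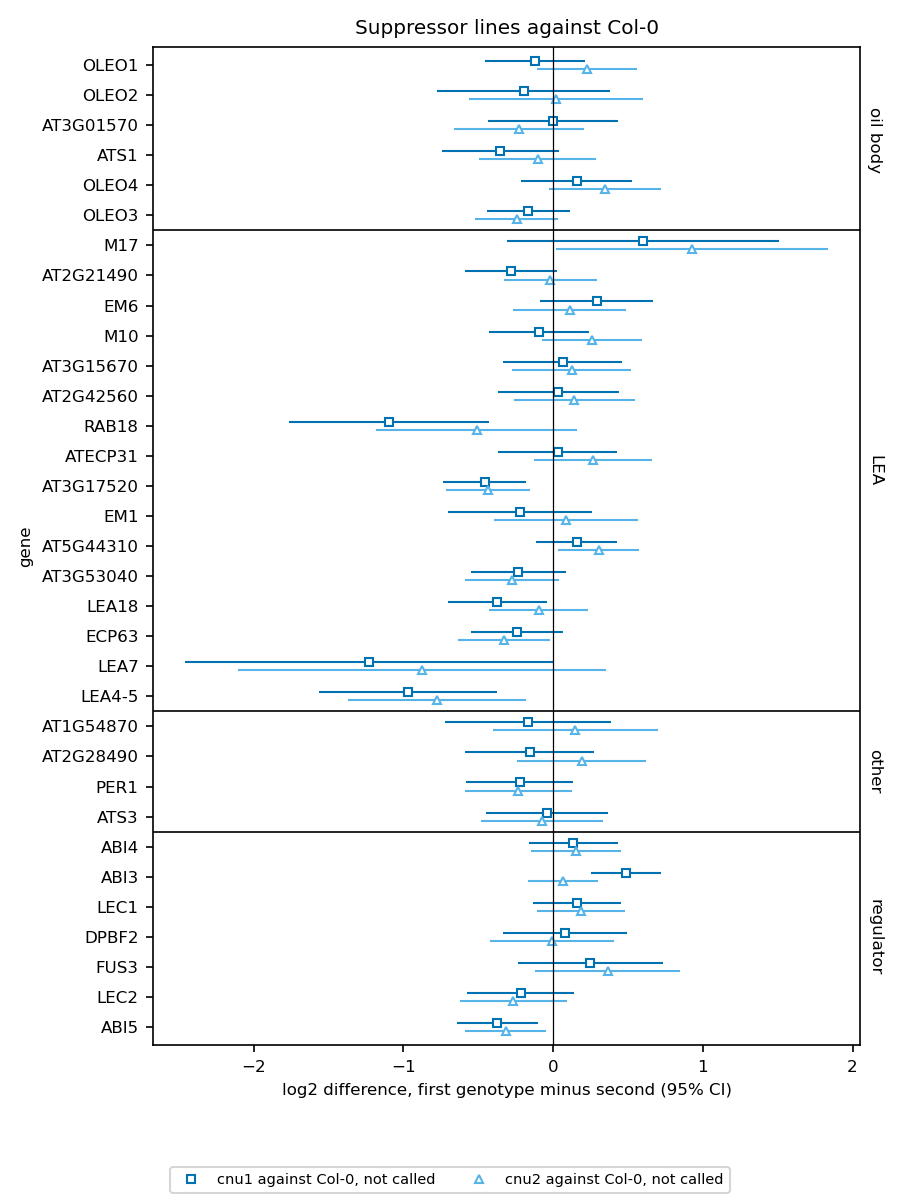
Log2 difference from Col-0 with its 95% confidence interval for 33 genes (rows, grouped by role) in cnu1 (squares) and cnu2 (triangles); open symbols did not pass the test. Most intervals include 0, M17 lies to the right at 0.60 and 0.93, and LEA7, RAB18 and LEA4-5 lie to the left.

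The comparison of cnu1 with cnu2 asked whether the suppressors differ in these genes. By limma 0 of 33 members passed, where 0.568% of all loci did, 0.377% higher and 0.190% lower in cnu1. An unadjusted p under 0.05 was held by 3 of the 33, OLEO1, M10 and ABI3, and by 2379 of all 27827 loci, a similar share. OLEO1 was lower in cnu1 by 0.35 (95% confidence interval of the difference -0.68 to -0.01, adjusted p = 0.559) and M10 by 0.35 (-0.69 to -0.02, adjusted p = 0.547). RAB18 differed by -0.59 (-1.26 to 0.08, adjusted p = 0.669). ABI3 differed by 0.42 (0.19 to 0.65, adjusted p = 0.152), and its 3 cnu1 values lay above its 3 cnu2 values. For 30 of the 33 members the interval lay within 1 log2 unit to each side of 0, and M17, RAB18 and LEA7 were the others. For all loci this held for 27138 of 27827, a larger share.

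Lists of related genes were counted in the same fit. Beside the counts of these and the following lists, 5.25% of all loci passed in PMEIox against Col-0. In cnu1 and in cnu2 against PMEIox 6.44% and 3.25% of all loci passed, and against Col-0 0.622% and 0.187%. Of 35 further LEA genes 4 rose and 1 fell in PMEIox against Col-0, with a median of 0.13, and 8 fell in cnu1 and 5 in cnu2 against PMEIox. LEA27 (AT2G46140) rose by 0.85, AT3G22490, a near neighbour of ATECP31, by 0.89 and AT2G03850 by 0.60 (limma adjusted p = 0.00101, 0.00738 and 0.00941). In cnu1 against Col-0 0 of the 35 rose and 2 fell, of which LEA14 (AT1G01470), a drought-responsive gene, fell by 1.04 (adjusted p = 0.00647). Of 16 further genes of oil bodies and lipid droplets 2 rose in PMEIox, the caleosin gene ATPXG2 (AT5G55240) by 0.61 and the steroleosin gene HSD5 (AT4G10020) by 0.64, and 3 fell in each suppressor against PMEIox. The third by adjusted p, OBAP1A (AT1G05510), differed by 0.81 and did not pass (adjusted p = 0.0659). In cnu1 against Col-0 0 of these 16 rose and 2 fell, of which the drought-inducible caleosin gene RD20 (AT2G33380) fell by 1.55 (adjusted p = 0.0439).

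Regulators beyond the 7 showed few calls. Of 16 further regulators of maturation, germination or ABA response, 1 rose and 1 fell in PMEIox against Col-0. MFT (AT1G18100), a seed germination gene, rose by 0.43 and ABF3 (AT4G34000), an ABA response factor, fell by 0.78 (limma adjusted p = 0.0428 and 0.00303), while AGL15 (AT5G13790) differed by 0.36 (adjusted p = 0.0778). Of 19 repressors of the embryonic programme, such as VAL2, PKR1 and ASIL1, 0 passed in PMEIox against Col-0, with 1 at an unadjusted p under 0.05, and their median was -0.05. The 3 with the smallest adjusted p, ASIL1, VAL2 and PKR1, differed by 0.21, -0.12 and -0.12.

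Genes of ABA synthesis and signalling moved in both directions. Of 13 genes of ABA synthesis and breakdown, 1 rose and 2 fell in PMEIox against Col-0, with a median of -0.31. NCED3 (AT3G14440), a rate-limiting synthesis gene, had 7.75, 7.64 and 7.79 in cnu1, 7.84, 7.92 and 7.59 in cnu2, and 6.95, 7.16 and 7.26 in PMEIox, against 8.13, 8.24 and 7.87 in Col-0. The PMEIox values were below all others, and NCED3 fell by 0.96 ± 0.13 and ABA1 (AT5G67030), which acts early in synthesis, by 0.83 ± 0.14, while CYP707A2 (AT2G29090), which breaks ABA down, rose by 0.58 ± 0.09 (SE, limma adjusted p = 0.000962, 0.00511 and 0.00252). Of 22 genes of ABA perception and signalling 2 rose and 4 fell. The phosphatase genes AHG3 (AT3G11410) and HAI1 (AT5G59220), which ABA induces, fell by 1.31 and 1.17, and the receptor gene PYL4 (AT2G38310) rose by 0.54 (adjusted p = 0.00437, 0.0116 and 0.00807). AHG3 rose by 1.02 in cnu2 against PMEIox (adjusted p = 0.0292).

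All 10 storage protein genes measured rose in PMEIox against Col-0, with a median of 2.73, and 9 fell in each suppressor against PMEIox. The albumin genes SESA3 (AT4G27160) and SESA1 (AT4G27140) rose by 3.49 and 3.37 and the globulin-like gene PAP85 (AT3G22640) by 2.77 (limma adjusted p = 2.64e-06, 3.31e-06 and 5.13e-06). The mean log2 value of the 10 per array lay between 5.45 and 5.92 in cnu1, between 5.56 and 6.33 in cnu2 and between 8.11 and 8.49 in PMEIox, against 5.63 to 5.85 in Col-0. In cnu1 against Col-0 0 of the 10 rose and 1 fell, and in cnu2 against Col-0 0 passed. Of 5 genes expressed in the endosperm of germinating seeds 1 rose, EPR1 (AT2G27380) by 0.71 (limma adjusted p = 0.0357), while EXPA2 at 0.48 and MAN6 at -0.39 did not pass. In cnu1 against PMEIox 1 of the 5 fell, and in cnu2 against PMEIox 0 passed. Of the 5, 3 had an unadjusted p under 0.05 in PMEIox against Col-0. Against PMEIox, 4 did in cnu1 and 1 in cnu2. For all 27827 loci these counts were 5146, 5464 and 4674. The mean over these 5 lay between 6.78 and 6.88 in cnu1, between 6.87 and 7.06 in cnu2 and between 7.02 and 7.24 in PMEIox, against 6.89 to 6.99 in Col-0. Their part in the differences of the maturation genes was not tested.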

How the data were processed

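The deposited table gives 1 value per locus and array for 12 Affymetrix arrays hybridised with biotinylated cRNA, per the labels' protocols. Its deposited values are read as log2 intensities from their range. The log base, array type, background correction, probe summary and software are not given in the sources used here. Every array holds the same set of values once sorted, which shows that the authors normalized them to 1 distribution; no further scaling was applied. Depth has no counterpart on arrays, and the number of arrays limits the precision. Symbols were matched by locus to a RefSeq gene table (TAIR10.1), which held all 34 members and 27241 of the loci.

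Genotypes were compared with limma 3.58.1 in R 4.3.3 (lmFit with 1 mean per genotype over all 12 arrays, then eBayes; residual degrees of freedom 8, prior 4.06). Two-sided tests were adjusted across the 27827 loci by the Benjamini-Hochberg method, and an adjusted p under 0.05 was a call. In "X against Y" a positive difference means higher in X. The procedure was tested on simulated data.

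Members and lists were chosen with earlier results of these data known. Values of every array are given for the regulators and, per role, for the 4 targets with the smallest adjusted p in PMEIox against Col-0 and the 2 with the smallest in cnu1 against cnu2. OLEO3, EM1, LEA7 and LEA4-5 were added after their values were seen, as was the second ABI3 comparison. From other lists the 3 smallest in PMEIox against Col-0 are named, with up to 3 others per comparison past 1 log2 unit. Of the reference genes 0 of 10 passed in PMEIox against Col-0. No sequence was used, so promoter motifs were not counted. Alternatives were a filter on dim loci, other scaling, other variance settings, array weights, fewer genotypes, a minimum fold, a replicate block and omission of each array. Python 3.11.15 with matplotlib 3.10.9 drew the figures.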

Additional observations from a re-analysis of the deposited data

Results flagged for a closer look

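The difference from PMEIox was not the same in the suppressors for MFT (AT1G18100), a regulator of seed germination that is not among the 34 genes. MFT had 7.15, 7.26 and 7.14 in cnu1, 7.63, 7.79 and 7.83 in cnu2, and 7.65, 7.89 and 7.70 in PMEIox, against 7.18, 7.29 and 7.50 in Col-0. It fell by 0.57 in cnu1 against PMEIox (limma adjusted p = 0.00831), and in cnu2 its values overlapped those of PMEIox. The test of cnu1 against cnu2 gave -0.57 ± 0.11 (SE, adjusted p = 0.0439), with all 3 cnu1 values below all 3 cnu2 values. Among the 33 members 0 passed that test, and among the 153 measured genes of the other lists MFT alone did. Of all loci 0.568% passed it. The alternatives of processing were run for members only, so the MFT call was not checked under them.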

How the results depend on the processing

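No call of a member changed sign under any alternative run. Of 54 calls of members, 39 held under every alternative with a test of its own in which they were measured, and 36 of these also reached the minimum fold of 2. Without the lowest 40% of loci, where 17 members remained, the count of members called was 10 in PMEIox against Col-0 and 12 in cnu1 against PMEIox, and targets exceeded regulators by 1.45. That value rests on 15 targets and 2 regulators, ABI3 and ABI5, and M17 and AT2G28490 were kept although their Col-0 means lie below the filter. A minimum fold of 2 gave 11 in PMEIox against Col-0. The dim filter and the trend and robust settings each gave 1, ABI3, in cnu1 against Col-0. Omitting an array gave 15 to 17 in PMEIox against Col-0, 14 to 21 in cnu1 and 11 to 16 in cnu2 against PMEIox, and targets above regulators by 0.63 to 1.03. With only the compared genotypes fitted the counts were 14, 18 and 12, and the calls of AT2G42560, ATECP31 and AT5G44310 and the cnu2 calls of M17, OLEO2 and RAB18 against PMEIox ended (adjusted p from 0.0514 to 0.121). Over the alternatives the number of all loci called ran from 319 to 2043 in PMEIox against Col-0, 389 to 2487 in cnu1 and 196 to 1490 in cnu2 against PMEIox, 45 to 631 in cnu1 and 0 to 236 in cnu2 against Col-0, and 59 to 267 in cnu1 against cnu2, where the fit reported here gave 1460, 1792, 905, 173, 52 and 158. The replicate block gave 18, 19 and 16 members in these comparisons, against 18, 21 and 15 without it. The labels do not say whether a letter marks 1 week in every genotype, and the block was not used in the fit reported here. The correlation of deviations from the genotype mean ran from -0.137 to 0.190 over 18 pairs of same-lettered arrays and was over 0.1 in 7. For 10 of 12 arrays the mean correlation with same-lettered arrays of other genotypes exceeded the mean for either other letter. Deviations sum to 0 within a genotype, so these 12 outcomes depend on each other. Whether letters share a week was not tested. Under the block the cnu1 calls of EM1 and AT5G44310 ended (adjusted p = 0.0552 and 0.069) and ECP63 in cnu2 against PMEIox passed (adjusted p = 0.0408). Centring on 10 reference genes shifted all loci by -0.108 in cnu2 against Col-0 and by less elsewhere, and gave 17, 20 and 15 members. Median centring changed nothing, since all arrays share a median. Dim signals limit the set: 10 of the 17 targets that rose had a Col-0 mean below the dim filter. Promoter motif counts were not run.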
